A study of Mus musculus with 10 samples.

Results

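Chromatin accessibility around 10 Wnt target and stem cell genes was examined in mouse colon organoids. The genes are *Lgr5*, *Axin2*, *Ascl2*, *Smoc2*, *Rnf43*, *Znrf3*, *Nkd1*, *Sp5*, *Cd44* and *Sox9*. They were listed by name, and all 10 are among the 18180 protein-coding genes that had a peak in at least 2 of 10 libraries. Every peak that overlapped the gene body or the 20 kb on each side of it was used, which gave 89 merged sites of 85680 sites in the whole genome. The accessibility assay was Omni-ATAC-seq, in which a transposase cuts and tags open chromatin, applied to live sorted cells. Organoids of wild type (WT) mice and of *Vil-cre Ahr fl/fl* mice (AHR KO), the WT being littermates, both on the C57BL/6 background and of an age not given in the sources used here, were compared. In the AHR KO, Cre driven by the villin promoter removes the aryl hydrocarbon receptor, a ligand-activated transcription factor, from epithelial cells. WENR medium holds Wnt3a-conditioned medium, EGF, Noggin and R-spondin1 with SB202190, the ALK5 inhibitor A83-01 and nicotinamide. The d4 ENR libraries were made 4 days after the change to medium with EGF, Noggin and R-spondin1 alone, so the loss of Wnt3a cannot be told apart from the loss of the 3 other additions. There were 2 WT and 3 AHR KO libraries in WENR, and 3 WT and 2 AHR KO libraries in d4 ENR.

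Canonical Wnt signalling stabilises β-catenin, which enters the nucleus and switches on target genes with TCF and LEF factors. In the crypt, high Wnt activity marks the stem cell zone at the base. *Lgr5* encodes the R-spondin receptor that marks crypt base stem cells, *Ascl2* a transcription factor of these cells, and *Smoc2* a secreted matrix protein of their signature. *Axin2*, *Rnf43*, *Znrf3* and *Nkd1* encode feedback inhibitors of the pathway. Axin2 is a scaffold of the complex that degrades β-catenin, Rnf43 and Znrf3 are membrane E3 ubiquitin ligases that remove Frizzled receptors, and Nkd1 binds Dishevelled. *Sp5* encodes a zinc finger factor induced by Wnt, *Cd44* a hyaluronan receptor, and *Sox9* a transcription factor of the crypt base.

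The libraries held 30354729 to 49126792 fragments. The share of coverage that lay in peaks, computed as mean pileup times peak length over fragments times mean fragment length, was 63.0% to 68.6% in the 5 WENR libraries and 14.1% to 44.3% in the 5 d4 ENR libraries, with WT d4 ENR 1 the lowest. The number of peaks was 61485 to 65308 in WENR and 33433 to 58359 in d4 ENR. A missing peak therefore means that the site did not pass the caller's threshold in that library. Promoters of 9 to 10 of 10 epithelial marker genes held a peak in each library. No library had a peak at a promoter of the 5 immune markers, *Ptprc* and *Cd3e* included. Of 6 stromal markers, 4 had a promoter peak in each WENR library and 2, *Col1a1* and *Pdgfra*, in each d4 ENR library, and of 3 endothelial markers 1 had one in WENR and none in d4 ENR. The part of other cell types in the results was not tested. Over *Ahr* itself with 20 kb on each side, peaks covered 3277 to 3846 bp in WT and 6155 to 8145 bp in AHR KO libraries in WENR, and peaks alone do not reveal whether the gene was deleted.

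Withdrawal of Wnt3a went with fewer bases under peaks around most of the 10 genes, with the largest differences at *Znrf3*, *Cd44*, *Axin2* and *Lgr5*. *Smoc2* went the other way. Of the 10 genes, 7 had significantly fewer covered bases in d4 ENR, where 72.0% of all genes did, and 1 had more, where 1.25% of all genes did. The median difference on the scale of log2(covered bp + 200) was −0.53 over all genes and −0.59 over the 10. Fewer cells of a type and less open chromatin per cell cannot be told apart in such bulk libraries. When each library was centred on its median gene, 4 of the 10 were still lower (*Lgr5*, *Axin2*, *Znrf3* and *Cd44*), where 19.5% of all genes were, and *Smoc2* was still higher, where 22.1% of all genes were. Every WENR library lay above every d4 ENR library for 7 of the 10 genes, and for 55.6% of all genes.

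*Lgr5* occupies positions 115450311 to 115587780 of chromosome 10 (GRCm38, minus strand). Peaks covered 7387 and 7952 bp around it in the 2 WT WENR libraries, and 7564, 7961 and 8967 bp in the 3 AHR KO WENR libraries. After withdrawal the WT libraries had 3266, 3445 and 4415 bp, and the AHR KO libraries 4384 and 4570 bp. All d4 ENR libraries were below all WENR libraries, and the 2 genotypes overlapped in both media. Averaged over the genotypes, the difference between the media was −0.93 on the log2 scale (SE 0.10, adjusted p = 0.00017), and centred on the median gene it was −0.38 (adjusted p = 0.0013). In d4 ENR the AHR KO value exceeded WT by 0.27 (adjusted p = 0.14), which did not pass the test.

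*Ascl2*, on chromosome 7 from 142966829 to 142969264, was covered at 2244 and 2690 bp in WT WENR and at 2569, 2568 and 2558 bp in AHR KO WENR. In d4 ENR the WT values were 2018, 2028 and 1845 bp, against 2058 and 2063 bp for AHR KO. The groups of the 2 media did not overlap, and the difference was −0.29 (SE 0.08, adjusted p = 0.012), or −0.23 without WT WENR 2 (adjusted p = 0.060). It was smaller than that of the median gene, and centred on that gene it turned to 0.25 (adjusted p = 0.12). *Sox9*, on chromosome 11 from 112782224 to 112787760, showed the same order. It had 4960 to 5469 bp in WENR and 3075 to 4909 bp in d4 ENR, and its difference of −0.30 stayed just outside the threshold (SE 0.12, adjusted p = 0.050). Without WT d4 ENR 3 it was −0.37 and passed (adjusted p = 0.0074), and after centring it was 0.25 (adjusted p = 0.098).

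*Smoc2* lies on chromosome 17 from 14279506 to 14404790. Its window held 1362 and 1900 bp in WT WENR and 1776, 1892 and 1466 bp in AHR KO WENR. After withdrawal the WT libraries held 1335, 2135 and 3503 bp there, and the AHR KO libraries 4488 and 4532 bp. Both AHR KO libraries were above every other library, while the 3 WT d4 ENR libraries spread from below to above the WENR range. It differed between the media by 0.85 (SE 0.23, adjusted p = 0.0095), but −0.22 (adjusted p = 0.73) when weaker peaks, with a −log10 q under 5, were left out. In d4 ENR the AHR KO value exceeded WT by 0.99 (SE 0.32, adjusted p = 0.052).

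Among the feedback inhibitors, *Znrf3* showed the largest difference. This gene spans chromosome 11 from 5276324 to 5444847, and its window held 12063 and 11687 bp in WT WENR and 8281, 10961 and 12676 bp in AHR KO WENR. The WT d4 ENR libraries held 3020, 2589 and 4405 bp, and those of AHR KO 5899 and 6304 bp. The media did not overlap, and neither did the genotypes in d4 ENR. Between the media *Znrf3* differed by −1.28 (SE 0.16, adjusted p = 0.00033), but by −0.10 (adjusted p = 0.67) when every library was cut to its 33433 most significant peaks. *Axin2*, on chromosome 11 from 108920349 to 108950783, had 9220 and 8977 bp in WT WENR and 11231, 11261 and 10563 bp in AHR KO WENR. Its WT d4 ENR values were 3267, 4015 and 4596 bp, and its AHR KO d4 ENR values 5556 and 6112 bp, again without overlap. Its difference between the media was −1.03 (SE 0.10, adjusted p = 0.00010) and, in lists cut to that length, −1.17.

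*Rnf43*, on chromosome 11 from 87662722 to 87735539, had the most bases under peaks of the 10 genes, and in WENR it was also the most covered per length. Peaks took 16.1% of its window in WT WENR and 18.4% in AHR KO WENR, against 12.9% and 15.6% for *Axin2* and 0.987% and 1.04% for *Smoc2*. Its window held 18223 and 18177 bp in WT WENR and 20470, 19240 and 22652 bp in AHR KO WENR. In d4 ENR this fell to 8059, 10534 and 10691 bp for WT, and to 13743 and 14609 bp for AHR KO. The difference between the media was −0.72 (SE 0.10, adjusted p = 0.00063) and, centred on the median gene, −0.17 (adjusted p = 0.0504).

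*Nkd1*, on chromosome 8 from 88521354 to 88594884, had little open chromatin in its window, and in WENR all of it was at the promoter site. It had 1038 and 1229 bp in WT WENR, and 1002, 983 and 1069 bp in AHR KO WENR. After withdrawal WT had 650, 444 and 400 bp, whereas AHR KO had 1050 and 1044 bp. The promoter site alone held 650 and 444 bp in WT d4 ENR 1 and 2, none in WT d4 ENR 3, and 779 and 680 bp in AHR KO, so it was below the WENR values in every d4 ENR library. The rest, 400 bp in WT d4 ENR 3 and 271 and 364 bp in AHR KO, lay in an intron site with no peak in WENR. Averaged over both genotypes *Nkd1* differed by −0.46 (SE 0.13, adjusted p = 0.014), and without WT WENR 2 by −0.40 (adjusted p = 0.057). *Sp5*, on chromosome 2 from 70474923 to 70477729, held 2389 and 2622 bp in WT WENR and 2528, 2428 and 2469 bp in AHR KO WENR. In WT d4 ENR the window held 899, 1022 and 2322 bp, and in AHR KO d4 ENR 2446 and 2707 bp. WT d4 ENR 3 lay close to the WENR libraries and the other 2 WT libraries far below. Its difference of −0.40 did not pass the test (SE 0.22, adjusted p = 0.12), and without WT d4 ENR 3 it was −0.58 and did (adjusted p = 0.00036).

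*Cd44*, on chromosome 2 from 102811141 to 102901665, held 9067 and 11836 bp in WT WENR and 13621, 13834 and 12765 bp in AHR KO WENR. The d4 ENR values were 3487, 4339 and 4386 bp for WT, with 7088 and 5936 bp for AHR KO. The 4 groups did not overlap. *Cd44* differed between the media by −1.17 (SE 0.11, adjusted p = 9.9e-05), and by −0.85 in lists of equal length. In a permutation of the libraries between the media within each genotype, *Lgr5*, *Axin2*, *Ascl2*, *Rnf43*, *Znrf3*, *Cd44* and *Sox9* reached the smallest p that the 100 arrangements allow, 0.02 (exact, 2-sided; adjusted over all genes, 0.033). They are the 7 genes with every WENR library above every d4 ENR library, an order that 55.6% of all genes had.

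**Figure D1:**
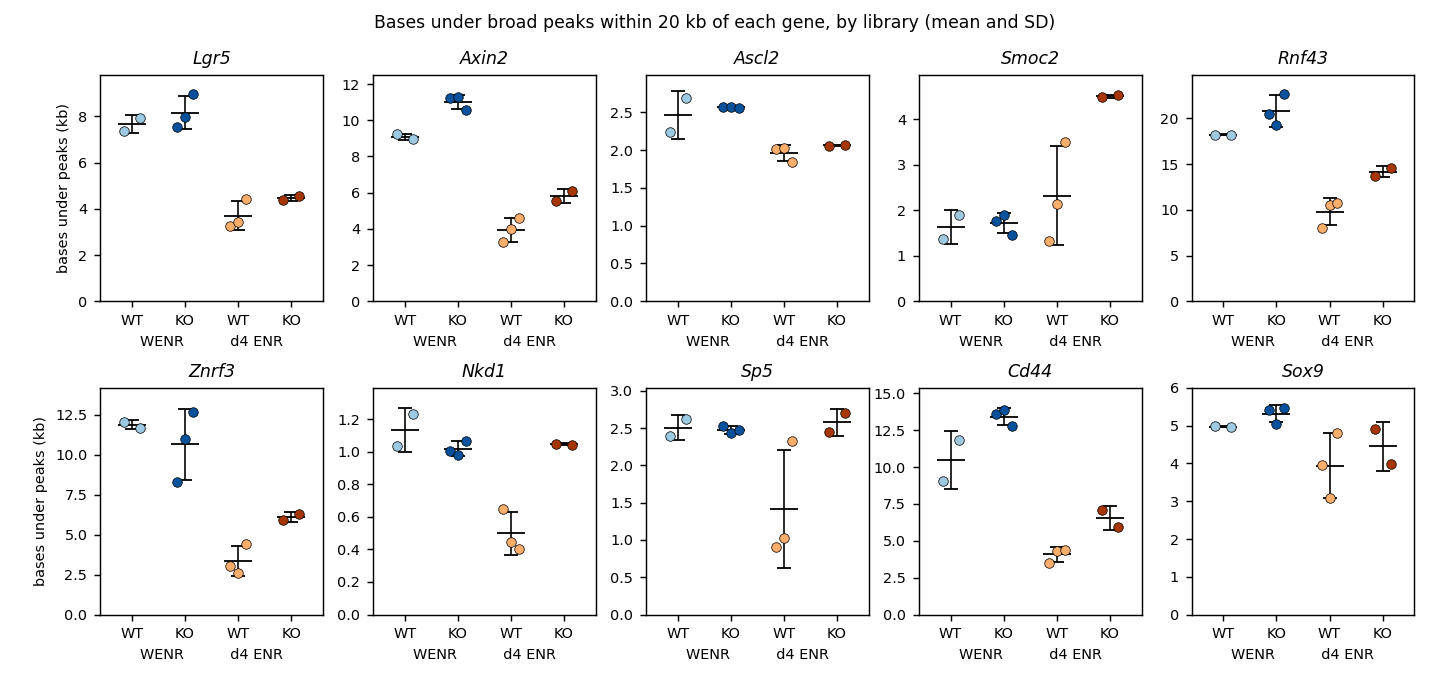
Bases under broad peaks (kb) within 20 kb of each of the 10 genes, one point per library, with the mean and SD of each group (WT WENR n = 2, AHR KO WENR n = 3, WT d4 ENR n = 3, AHR KO d4 ENR n = 2). The d4 ENR libraries lie below the WENR libraries for 7 genes, and for *Nkd1*, *Sp5* and *Smoc2* the AHR KO d4 ENR libraries reach or pass the WENR level.

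The genotypes were compared within each medium. In d4 ENR, AHR KO exceeded WT for all 10 in the fitted difference, as it did for 16983 of all 18180 genes. For 5 of 10 (*Axin2*, *Rnf43*, *Znrf3*, *Nkd1* and *Cd44*) this passed the test, where 23.7% of all genes did. The differences were 0.86 for *Znrf3* (SE 0.23, adjusted p = 0.033), 0.85 for *Nkd1* (SE 0.19, adjusted p = 0.022), 0.65 for *Cd44* (SE 0.15, adjusted p = 0.025), 0.55 for *Axin2* (SE 0.14, adjusted p = 0.030) and 0.54 for *Rnf43* (SE 0.15, adjusted p = 0.036). For *Sp5* the difference was 0.89 (adjusted p = 0.061), for *Sox9* 0.18 (adjusted p = 0.38) and for *Ascl2* 0.06 (adjusted p = 0.65). Both AHR KO libraries were above all 3 WT libraries for 8 of 10 genes, all but *Lgr5* and *Sox9*, and for 60.5% of all genes. The median difference over all genes was 0.43, against 0.60 over the 10. Centred on the median gene, none of the 10 was called by limma, where 1.18% of all genes were called higher in AHR KO. At an unadjusted p under 0.05 there were 4, and 3714 of all 18180 genes. Of the 4, *Smoc2* (0.53) and *Znrf3* (0.40) were higher in AHR KO, and *Lgr5* (−0.19) and *Ascl2* (−0.40) were lower.

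The 5 calls depended on single libraries. Without WT d4 ENR 2, AHR KO d4 ENR 1 or AHR KO d4 ENR 2 none of the 10 genes was called, and without WT d4 ENR 3 there were 8. Without any one of the WENR libraries 2 or 3 were called. With 3 against 2 libraries an exact permutation test cannot go below 0.2, and this was its value for the 8 genes without overlap. In WENR, 0 of the 10 genes were called by limma, where 0.0385% of all genes were, with differences from −0.18 (*Znrf3*) to 0.36 (*Cd44*). At an unadjusted p under 0.05 there was 1, *Cd44*, and 429 of all 18180 genes. All 3 AHR KO libraries were above both WT libraries in WENR for *Axin2*, *Rnf43*, *Cd44* and *Sox9*, and for 12.7% of all genes. The difference between the media in the effect of genotype was called for 0 of 10 genes (2 at an unadjusted p under 0.05, against 4484 of all 18180 genes), where 0.468% of all genes were called. It was largest for *Znrf3*, at 1.04 (SE 0.32, adjusted p = 0.14), and *Nkd1*, at 0.98 (adjusted p = 0.12). Without WT d4 ENR 3 it was called for 4 (*Smoc2*, *Znrf3*, *Nkd1* and *Sp5*), without WT d4 ENR 1 for 1 (*Nkd1*), and with any other library left out for none. With weaker peaks left out it was called for *Ascl2* and *Sp5*. The shares of all genes called with a library left out, or without weaker peaks, are not given here.

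**Figure D2:**
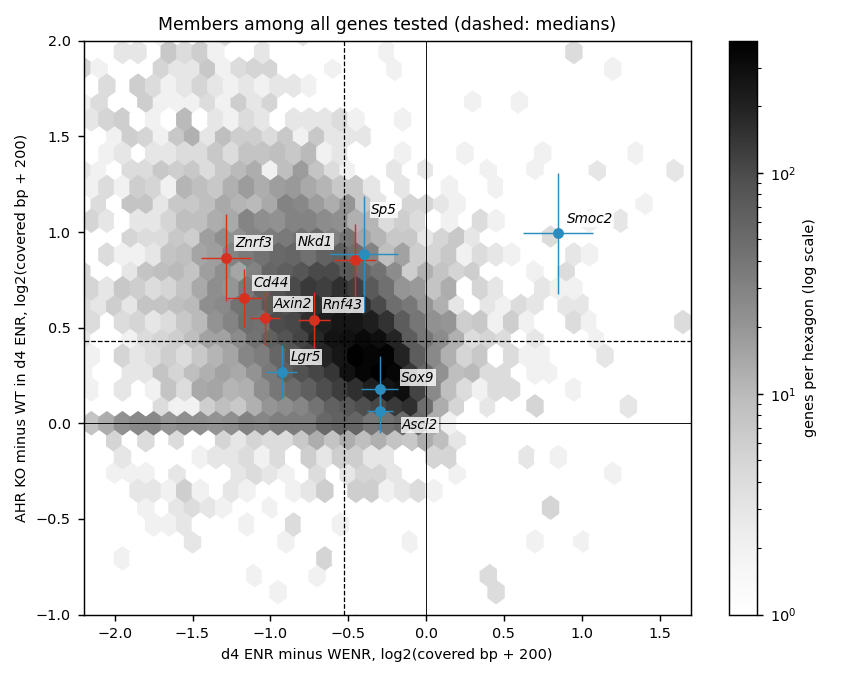
Difference between the media (x axis) and between the genotypes in d4 ENR (y axis), both on the scale of log2(covered bp + 200), for the 10 genes (points with SE, red where the genotype difference passed the test) over all 18180 genes (hexagons, shaded by number on a log scale); axes cover part of the range. *Znrf3*, *Cd44*, *Axin2*, *Lgr5* and *Rnf43* lie left of the median gene (dashed lines at −0.53 and 0.43), and *Smoc2* lies far to the right.

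The 89 sites were spread unevenly. *Rnf43* had 19, *Znrf3* 18, *Cd44* 14, *Axin2* 12, *Lgr5* 10, *Smoc2* 8, *Sox9* 3, *Ascl2* and *Nkd1* 2 each and *Sp5* 1. By place, 12 overlapped a promoter of one of the 10 genes (1 kb before to 100 bp after a transcription start), 2 that of a neighbour (*Kremen1* and *Supt4a*), 52 had their middle in an intron, 2 in an exon and 21 between protein-coding genes. Single libraries called 62 to 72 of the 89 in WENR and 31 to 46 in d4 ENR. In d4 ENR the WT libraries called 31, 37 and 38 and the AHR KO libraries 42 and 46. Of the 89 sites, 34 were called in WENR libraries alone (38.2%, against 22.6% of all sites), 10 in d4 ENR libraries alone (11.2%, against 11.8%), and 12 in a single library (13.5%, against 14.4%).

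Of the 49 sites that were called in all 5 WENR libraries, 25 were called in all 10 libraries (51.0%, against 54.0% of all such sites), and 10 in no d4 ENR library (20.4%, against 8.95% of all such sites). Each d4 ENR library called a smaller share of the 49 than of the 52254 such sites in the genome. WT d4 ENR 1, 2 and 3 called 55.1%, 63.3% and 65.3% of the 49, against 56.3%, 73.6% and 80.5% of all. AHR KO d4 ENR 1 and 2 called 73.5% and 75.5%, against 78.5% and 87.3%. With weaker peaks left out, AHR KO d4 ENR 1 went the other way, at 72.5% against 68.7%, and in lists of equal length it called 88.5% against 88.6%. With all peaks the gap was least in WT d4 ENR 1, which had the lowest share of coverage in peaks.

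**Figure D3:**
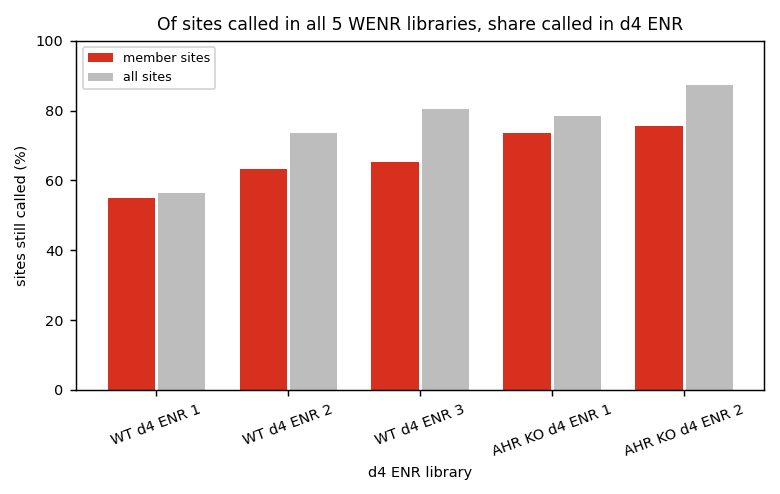
Share of the sites called in all 5 WENR libraries (%) that each d4 ENR library still called, for the 49 sites of the 10 genes (red) and for all 52254 such sites (grey). The red bar is the lower in all 5 libraries, from 55.1% in WT d4 ENR 1 to 75.5% in AHR KO d4 ENR 2.

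Most promoters at the gene starts kept a peak. The promoter site of 9 of the 10 genes was called in all 10 libraries, and that of *Nkd1* (chr8:88520847-88522075) in all but WT d4 ENR 3. With the internal promoters and those of *Kremen1* and *Supt4a*, 11 of 14 promoter sites were called in all 10 libraries (78.6%, against 82.1% of all promoter sites called throughout WENR). Single d4 ENR libraries called 78.6% to 85.7% of the 14 and 83.3% to 95.4% of all such promoter sites. The *Nkd1* fold enrichment, the ratio of the pileup to the local background, was 4.74 and 4.25 in WT WENR, 4.22, 3.59 and 3.62 in AHR KO WENR, 3.05 and 3.33 in the 2 WT d4 ENR libraries with a peak and 2.88 and 3.30 in AHR KO d4 ENR. All values in d4 ENR were lower than those in WENR. The pileup of these promoters, scaled to a library of 10000000 fragments, was far lower in d4 ENR at most of them.

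The *Ascl2* promoter (chr7:142967251-142969511) had 29.8 and 37.3 fragments per 10000000 in WT WENR and 34.8, 38.4 and 38.6 in AHR KO WENR. In d4 ENR it had 5.95, 5.31 and 5.48 in WT and 8.97 and 11.3 in AHR KO. The *Lgr5* promoter (chr10:115585903-115588009) went from 21.2 to 31.5 in WENR to 4.97, 6.63 and 7.95 in WT and 11.9 and 11.8 in AHR KO. The *Smoc2* promoter (chr17:14279164-14281086) did not follow. It had 4.85 and 6.40 in WT WENR, 5.25, 5.00 and 4.28 in AHR KO WENR, 3.99, 4.61 and 5.98 in WT d4 ENR and 6.63 and 9.57 in AHR KO d4 ENR. It and the *Sp5* promoter were the 2 of these 9 promoters at which the media overlapped. Over the 25 sites of the 10 genes called in every library, the pileup of every WENR library was above that of every d4 ENR library at 20, and this held at 81.5% of all 28205 such sites. Both AHR KO libraries were above all 3 WT libraries in d4 ENR at 23 of the 25, and at 74.1% of all such sites. The median pileup over all such sites was 26.8 to 29.0 in WENR, 6.97, 9.71 and 11.9 in WT d4 ENR and 14.0 and 17.3 in AHR KO d4 ENR.

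Relative to the median site of each library, the fold enrichment of 3 of the 25 sites was significantly lower in d4 ENR, where 18.4% of all such sites were lower, and that of 14 was higher, where 31.0% were. The 3 lower ones were the *Ascl2* promoter, an intron site of *Lgr5* 26.2 kb from its start and an intron site of *Axin2* 15.9 kb from its start. At the *Lgr5* intron site (chr10:115560886-115562232) the fold enrichment was 4.12 and 6.23 in WT WENR and 5.38, 4.64 and 6.31 in AHR KO WENR. In d4 ENR it was 2.63, 3.25 and 2.97 in WT and 3.90 and 4.16 in AHR KO. WT d4 ENR was below all WENR libraries, and the higher of the 2 AHR KO d4 ENR libraries reached the lowest of them. The centred difference was −0.50 on the log2 scale (SE 0.12, adjusted p = 0.0050). With centred pileup in place of fold enrichment it was 0.28 (adjusted p = 0.21).

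The *Axin2* intron site (chr11:108935548-108936891) was lower by both measures. Its fold enrichment was 4.34 and 4.61 in WT WENR, 4.03, 4.53 and 4.20 in AHR KO WENR, 2.91, 3.73 and 3.13 in WT d4 ENR and 3.41 and 3.66 in AHR KO d4 ENR, so the media did not overlap. The centred difference was −0.26 (adjusted p = 0.023) in fold enrichment and −0.79 (adjusted p = 0.00011) in pileup. The *Ascl2* promoter was lower by both as well, at −0.30 (adjusted p = 0.010) and −1.02 (adjusted p = 2.5e-05). The *Cd44* promoter (chr2:102899444-102902140) was lower in pileup alone, at −0.94 (adjusted p = 2.5e-06), with a fold enrichment difference of −0.13 (adjusted p = 0.25).

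The 4 other sites with the largest differences were all introns of *Rnf43*, and their relative fold enrichment was higher in d4 ENR. The site 19.4 kb from the start (chr11:87680673-87683659) had 2.54 and 2.60 in WT WENR, 2.56, 2.72 and 2.42 in AHR KO WENR, 3.53, 4.19 and 4.28 in WT d4 ENR and 3.16 and 3.54 in AHR KO d4 ENR. Its centred difference was 0.61 (SE 0.07, adjusted p = 5.6e-05), and those 34.4, 46.9 and 5.72 kb from the start had 0.51, 0.47 and 0.39. In centred pileup they were −0.14, −0.25, −0.07 and 0.11. Over all 25 sites, centred pileup was lower in d4 ENR at 11 and higher at 5, against 3 and 14 by fold enrichment, so the direction of a site relative to the median depended on the measure. Of all 28205 sites called in every library, centred pileup was lower at 4932 and higher at 8777. Without AHR KO d4 ENR 1 the calls by fold enrichment were 2 lower and 9 higher, and the *Rnf43* site at 5.72 kb lost its call, as it did without WT WENR 2.

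Of the 25 sites, 1 differed between the genotypes in d4 ENR by relative fold enrichment, where 6.33% of all such sites did. This was the *Znrf3* promoter (chr11:5443442-5445569), with 5.27, 7.54 and 5.49 in WT and 4.47 and 4.89 in AHR KO d4 ENR, against 4.71 to 4.84 in the 5 WENR libraries. The AHR KO value was lower than WT by the centred difference of −0.48 (SE 0.13, adjusted p = 0.044). With any single library other than WT d4 ENR 3 left out, none of the 25 sites was called. Without WT d4 ENR 3 there were 5, all lower in AHR KO. In WENR, 0 of the 25 sites were called by limma, as were 0.0% of all 28205 sites. At an unadjusted p under 0.05 there was 1, and 842 of all 28205 sites.

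**Figure D4:**
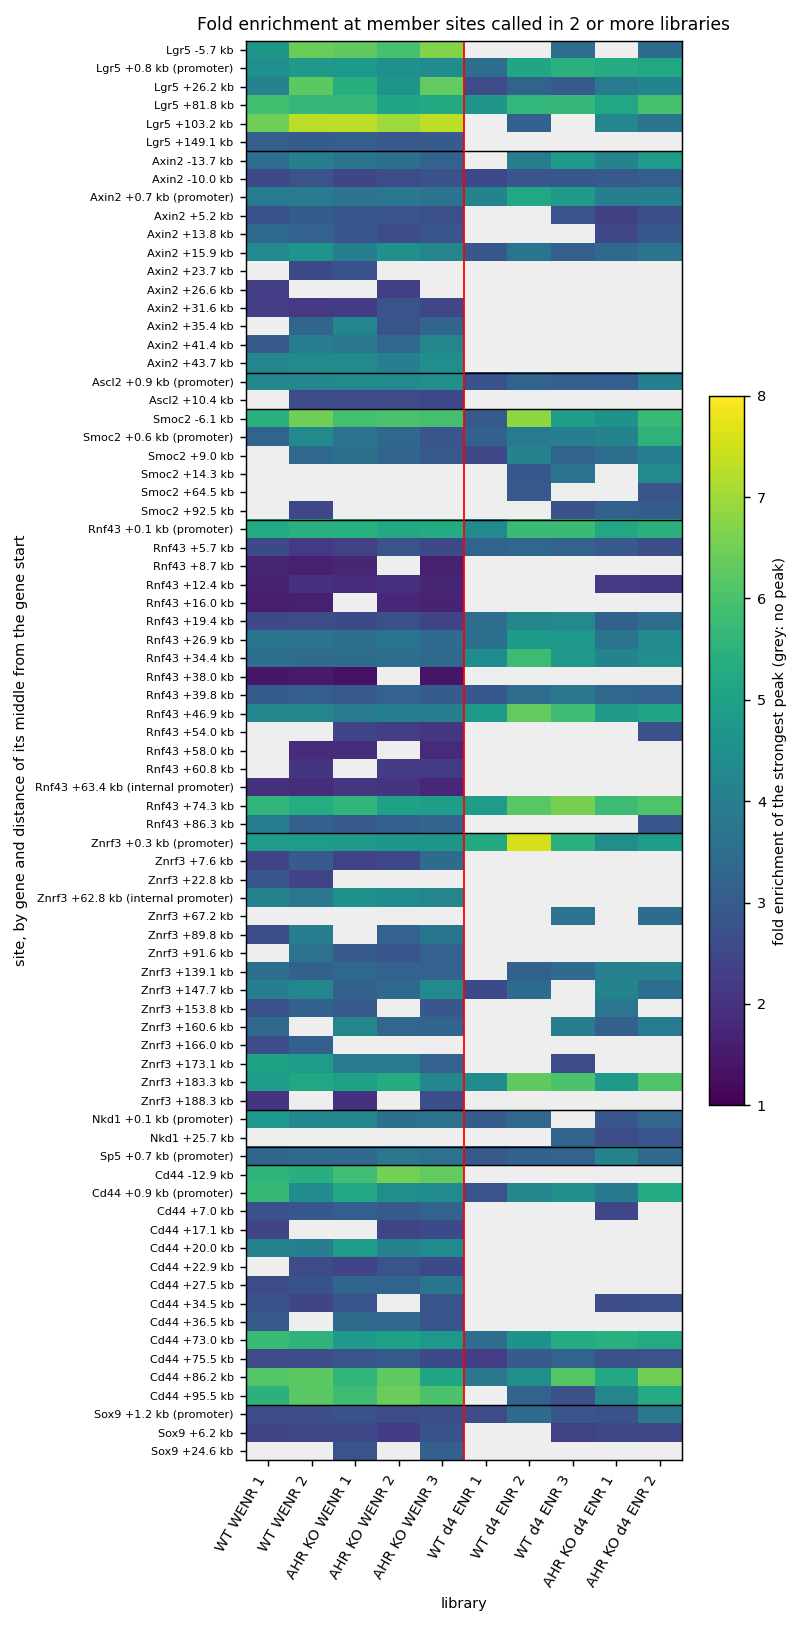
Fold enrichment of the strongest peak (colour, from 1 to 8) at the sites called in 2 or more libraries, one row per site named by gene and distance of its middle from the gene start, one column per library, with grey for no peak and a red line between WENR and d4 ENR. Promoter rows at the gene starts are coloured throughout apart from 1 library at *Nkd1*, while rows such as the one 12.9 kb before the *Cd44* start end at the red line.

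The sites that closed in both genotypes, with a peak in all 5 WENR libraries and no peak throughout d4 ENR, lay at 5 of the 10 genes. *Axin2* and *Cd44* had 3 each, *Znrf3* 2, and *Lgr5* and *Rnf43* 1 each. *Ascl2*, *Smoc2*, *Nkd1*, *Sp5* and *Sox9* had none, and these 5 genes had 7 of the 49 sites called throughout WENR. Of the sites at promoters, 2 of 14 closed (2.94% of all such sites), and of the other sites 8 of 35 (11.3%). Both promoter sites were internal ones, 62.8 kb into *Znrf3* and 63.4 kb into *Rnf43*, at starts of shorter protein-coding transcripts.

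The most enriched of the 10 was a site 12.9 kb before the *Cd44* start (chr2:102914206-102914997). Its fold enrichment was 5.55 and 5.40 in WT WENR and 5.86, 6.54 and 6.33 in AHR KO WENR, and no d4 ENR library of either genotype had a peak there. Of the 10238 sites in the genome that were at least as enriched in WENR, 102 closed in this way (0.996%). For the other closed sites of the 10 genes, this share was 3.50% to 8.81%. It is lowest here because this site was the most enriched. The 2 other sites of *Cd44* were in introns. One 20 kb from the start (chr2:102881155-102882122) had 4.12 and 3.99 in WT and 4.83, 4.07 and 4.34 in AHR KO WENR, and one 27.5 kb from the start (chr2:102873222-102875091) 2.63 to 3.73.

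At *Axin2* the 3 closed sites lay after the end of the gene. The farthest, 43.7 kb from the start (chr11:108963620-108964421), had a fold enrichment of 4.22 and 4.33 in WT WENR and 4.32, 4.00 and 4.44 in AHR KO WENR. The one at 41.4 kb (chr11:108961500-108962062) had 3.01 and 3.93 in WT and 3.76, 3.34 and 4.18 in AHR KO WENR, and the one at 31.6 kb (chr11:108951379-108952607) had 2.17 to 2.78. The internal promoter of *Znrf3* (chr11:5381047-5383048) had 4.11 and 3.77 in WT and 4.61, 4.42 and 4.19 in AHR KO WENR, and the intron site 7.56 kb from its start (chr11:5436775-5437796) 2.34 to 3.47. The *Lgr5* site (chr10:115438149-115439302), after the end of the gene, had 2.94 to 3.13. The *Rnf43* site (chr11:87725022-87727233) was the weakest, with 1.79 to 2.15.

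The middle 300 bases of the *Cd44* site before the gene and of the 4 closed sites whose window held a searched motif are shown, as DNA that was called in WENR alone. The reference is GRCm38.p6 from RefSeq, plus strand. The motifs were searched as letters on both strands: CTTTGAT and CTTTGAA for TCF and LEF factors, TGAGTCA and TGACTCA for AP-1, and TNGCGTG for AHR with ARNT. Capitals mark each match.
*Axin2* site 41.4 kb from the gene start, chr11:108961632-108961931: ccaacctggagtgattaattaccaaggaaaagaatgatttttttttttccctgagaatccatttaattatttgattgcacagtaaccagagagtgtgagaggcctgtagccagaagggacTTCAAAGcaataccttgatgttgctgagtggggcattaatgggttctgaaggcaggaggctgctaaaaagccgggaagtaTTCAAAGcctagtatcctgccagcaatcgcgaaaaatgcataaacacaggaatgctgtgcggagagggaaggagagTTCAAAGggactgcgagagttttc
*Axin2* site 43.7 kb from the gene start, chr11:108963871-108964170: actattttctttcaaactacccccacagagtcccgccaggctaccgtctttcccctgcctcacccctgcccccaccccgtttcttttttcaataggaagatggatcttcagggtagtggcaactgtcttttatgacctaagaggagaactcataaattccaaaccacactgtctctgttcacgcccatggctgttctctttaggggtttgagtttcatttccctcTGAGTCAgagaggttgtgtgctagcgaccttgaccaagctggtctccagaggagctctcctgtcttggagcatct
*Znrf3* site 7.56 kb from the gene start, chr11:5437136-5437435: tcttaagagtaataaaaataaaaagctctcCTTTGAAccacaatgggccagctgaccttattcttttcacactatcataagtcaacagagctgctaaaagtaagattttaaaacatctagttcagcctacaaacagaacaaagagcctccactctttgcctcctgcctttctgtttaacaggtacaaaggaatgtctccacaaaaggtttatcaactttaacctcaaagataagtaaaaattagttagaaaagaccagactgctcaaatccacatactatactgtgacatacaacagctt
*Cd44* site 20 kb from the gene start, chr2:102881489-102881788: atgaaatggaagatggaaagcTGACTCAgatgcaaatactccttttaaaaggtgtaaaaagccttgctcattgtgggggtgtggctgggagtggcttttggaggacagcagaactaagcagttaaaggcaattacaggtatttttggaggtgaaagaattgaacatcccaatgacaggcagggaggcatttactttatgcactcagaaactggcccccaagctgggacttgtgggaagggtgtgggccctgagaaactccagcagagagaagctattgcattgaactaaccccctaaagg
*Cd44* site 12.9 kb before the gene start, chr2:102914452-102914751: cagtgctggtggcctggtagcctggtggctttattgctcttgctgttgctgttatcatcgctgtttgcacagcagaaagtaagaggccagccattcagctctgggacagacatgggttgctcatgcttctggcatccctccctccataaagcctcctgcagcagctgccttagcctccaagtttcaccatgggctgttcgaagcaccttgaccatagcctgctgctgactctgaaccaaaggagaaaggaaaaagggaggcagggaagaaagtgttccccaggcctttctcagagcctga
The *Axin2* window at 41.4 kb held 3 TCF and LEF matches, all in the reverse orientation (TTCAAAG), at positions 121, 201 and 277 of the 300. The *Znrf3* window held 1, at position 31. The other 2 held an AP-1 match each. The *Cd44* window before the gene held none of the letters searched.

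**Figure D5:**
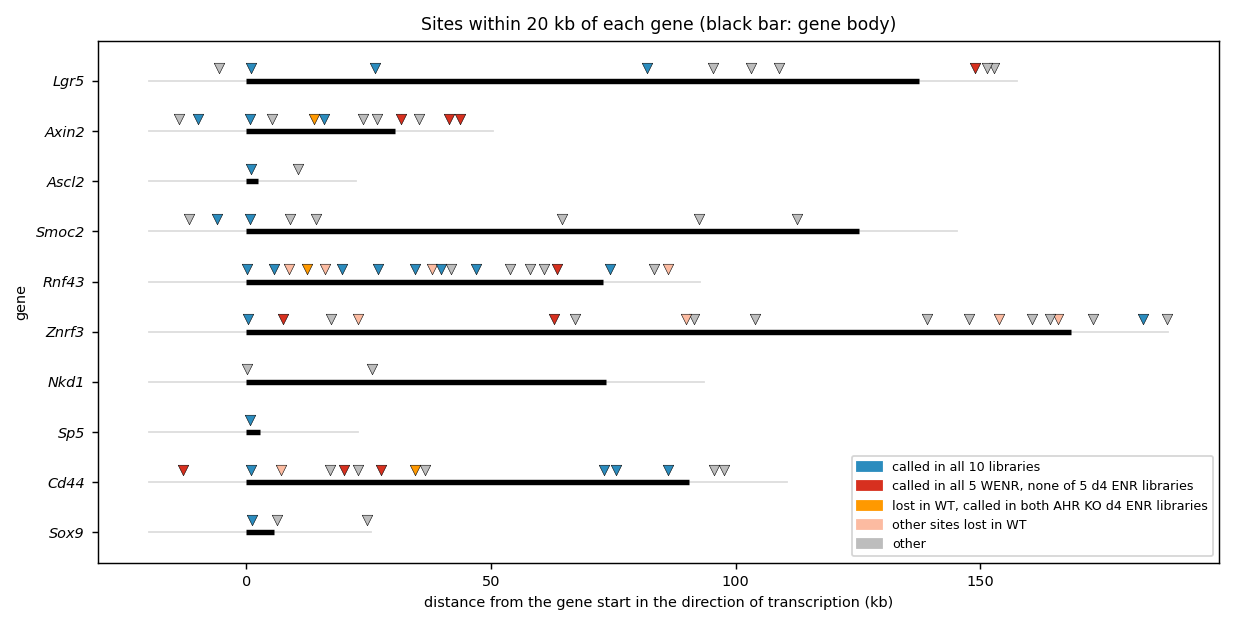
Position of the 89 sites along each gene as distance from the gene start in the direction of transcription (kb), with the gene body as a black bar and the 20 kb on each side as a thin line; colours give the calls across libraries. Blue sites, called in all 10 libraries, include 9 promoters, and the 10 red sites, closed in both genotypes, include 3 after the end of *Axin2* and 1 before *Cd44*.

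Sites lost in WT, called in both WT WENR and in none of 3 WT d4 ENR libraries, numbered 22 of 57 (38.6%, against 19.3% of all such sites). Of these 22, 3 still had a peak in each of the AHR KO d4 ENR libraries (13.6%, against 14.5% of all sites lost in WT). In AHR KO, 16 of 57 sites were lost, called in all 3 WENR and in neither d4 ENR library (28.1%, against 14.6% of all such sites). Of the 16, none was called in all 3 WT d4 ENR libraries, and of all sites lost in AHR KO 0.185% were. Of the 55 sites called in a d4 ENR library, 3 were called in both AHR KO and in no WT library (5.45%, against 3.67% of all such sites), and these were the same 3 sites. Sites called in all 3 WT and in neither AHR KO library in d4 ENR, and sites that opened in all 5 d4 ENR libraries from none in WENR, were not found among the 89, and they made up 0.112% of all sites called in d4 ENR and 0.317% of all sites.

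The 3 sites kept in AHR KO were intron sites of *Axin2*, *Rnf43* and *Cd44*. The *Axin2* site, 13.8 kb from the start (chr11:108933750-108934570), had a fold enrichment of 3.39 and 3.20 in WT WENR, 2.90, 2.65 and 2.83 in AHR KO WENR and 2.49 and 2.93 in AHR KO d4 ENR. Its pileup was 14.8 to 17.6 fragments per 10000000 in WENR and 5.07 and 5.82 in AHR KO d4 ENR, so it was still called there with fewer fragments. The *Rnf43* site, 12.4 kb from the start (chr11:87674486-87675740), had a fold enrichment of 1.69 and 1.98 in WT WENR, 1.82, 1.94 and 1.76 in AHR KO WENR and 2.19 and 2.13 in AHR KO d4 ENR. The *Cd44* site, 34.5 kb from the start (chr2:102866744-102867666), had 2.73 and 2.46 in WT WENR, 2.82 and 2.81 in 2 of 3 AHR KO WENR libraries and 2.65 and 2.70 in AHR KO d4 ENR. All 3 were weak peaks in WENR beside the promoters of the same genes. Their number was 5 without WT d4 ENR 3 or without AHR KO d4 ENR 2, and 1 in lists of equal length. The count of sites called in AHR KO alone in d4 ENR was 8 without WT d4 ENR 3 and 5 without either AHR KO d4 ENR library. Both AHR KO d4 ENR libraries had a larger share of coverage in peaks (33.8% and 44.3%) than the 3 WT d4 ENR libraries (14.1%, 24.4% and 30.9%). The part of this difference in these calls was not tested.

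The middle 300 bases of these 3 sites are given in the same way, as the DNA called after withdrawal in the AHR KO alone.
*Axin2* site 13.8 kb from the gene start, chr11:108934011-108934310: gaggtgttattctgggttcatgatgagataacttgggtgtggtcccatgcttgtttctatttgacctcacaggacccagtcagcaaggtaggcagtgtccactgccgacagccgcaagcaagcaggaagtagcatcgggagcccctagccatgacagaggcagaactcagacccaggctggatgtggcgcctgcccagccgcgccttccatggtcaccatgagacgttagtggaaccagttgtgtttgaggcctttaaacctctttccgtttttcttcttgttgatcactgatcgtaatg
*Rnf43* site 12.4 kb from the gene start, chr11:87674964-87675263: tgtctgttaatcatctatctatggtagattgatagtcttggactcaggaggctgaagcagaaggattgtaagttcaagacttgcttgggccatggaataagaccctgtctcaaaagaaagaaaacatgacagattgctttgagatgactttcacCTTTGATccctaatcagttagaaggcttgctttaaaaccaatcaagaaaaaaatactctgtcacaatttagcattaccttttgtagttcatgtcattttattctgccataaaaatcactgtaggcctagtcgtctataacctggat
*Cd44* site 34.5 kb from the gene start, chr2:102867056-102867355: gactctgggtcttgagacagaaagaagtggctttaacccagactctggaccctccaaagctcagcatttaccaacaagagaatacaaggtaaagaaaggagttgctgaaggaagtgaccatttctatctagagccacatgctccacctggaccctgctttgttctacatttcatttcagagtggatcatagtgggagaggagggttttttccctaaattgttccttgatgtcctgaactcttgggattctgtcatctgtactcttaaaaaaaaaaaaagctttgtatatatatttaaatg
The *Rnf43* window held 1 TCF and LEF match, at position 155, and no other match was found in the 3 windows. None held the AHR letters.

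Some strong sites of the stem cell gene *Lgr5* were reduced without closing. The intron site 103 kb from its start (chr10:115484100-115485022) had the highest fold enrichment of the *Lgr5* sites, at 6.47 and 7.28 in WT WENR and 7.30, 6.99 and 7.31 in AHR KO WENR. After withdrawal 1 of 3 WT libraries had 3.19 there, with no peak in the other 2, and AHR KO had 4.24 and 3.70. The site 5.67 kb before the *Lgr5* start (chr10:115592981-115593919) had 4.72 to 6.69 in WENR, 3.50 in WT d4 ENR 3 and 3.46 in AHR KO d4 ENR 2, and no peak in the other 3. At *Cd44*, the site after the end of the gene (chr2:102805456-102806808) had 5.50 to 6.43 in WENR, no peak in WT d4 ENR 1, 3.20 and 2.73 in the other WT and 4.18 and 5.30 in the AHR KO d4 ENR libraries. These sites were picked after their values were seen.

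The 10 sites with a peak in d4 ENR alone were 11.2% of the 89, against 11.8% of all sites. *Smoc2* had 4 sites of this kind, *Znrf3* 3, and *Rnf43*, *Nkd1* and *Cd44* 1 each. The *Nkd1* site, in an intron 25.7 kb from the start (chr8:88546869-88547285), had a fold enrichment of 3.29 in WT d4 ENR 3 and of 2.63 and 2.85 in AHR KO d4 ENR. A *Smoc2* intron site 14.3 kb from the start (chr17:14293555-14293961) had 2.94 and 3.66 in WT d4 ENR 2 and 3 and 4.32 in AHR KO d4 ENR 2. These peaks were picked after their values were seen. The *Smoc2* promoter had a higher relative fold enrichment in d4 ENR too (0.36, adjusted p = 0.0068).

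Across the 89 sites, the middle 300 bases held a TCF and LEF match in 13 (14.6%, against 11.6% of all 85680 sites). They held an AP-1 match in 13 (14.6%, against 14.9% of all). None held the AHR letters (3.71% of all sites). Of the 10 closed sites 2 had a TCF and LEF match (20%), and of the 25 sites called in all libraries 3 had one (12%). These are small numbers and are given as a description. RefSeq promoters, from 250 bases before to 50 after a gene start, were at hand for 6 of the 10 genes with 7 starts. A TCF and LEF match was found in that of *Sp5* alone, where 8.65% of all 32851 promoters had one, and the AHR letters in that of *Nkd1* alone, where 5.07% had them.

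Other genes of the pathway and of the stem cell state were counted in the same way. Of 15 other Wnt targets, 13 were lower in d4 ENR in covered bases and none higher, with a median difference of −0.81, where 72.0% and 1.25% of all genes were. Centred on the median gene, 7 were lower and 2 higher, where 19.5% and 22.1% of all genes were. The largest of the called differences were −1.63 at *Prox1* (SE 0.27), −1.61 at *Ephb3* (SE 0.07) and −1.50 at *Nkd2* (SE 0.43). *Prox1* had no peak in WT d4 ENR 2 and 3, and *Nkd2* none in WT d4 ENR 1, so their values depend on the added 200 bp. In d4 ENR 6 of the 15 were higher in AHR KO, where 23.7% of all genes were, and 1, *Ephb3*, after centring. The differences at *Prox1* (1.37), *Ephb3* (1.16) and *Tiam1* (1.05) were the largest of those called. *Ephb3*, an ephrin receptor of the crypt base, had 8517 and 9028 bp in WT WENR, 8222, 8378 and 8481 bp in AHR KO WENR, 1679, 1834 and 1642 bp in WT d4 ENR and 3813 and 4378 bp in AHR KO d4 ENR. The genotypes were alike in WENR and stood well apart in d4 ENR. It was the 1 gene of this list whose genotype difference depended on the medium, by 1.23 (SE 0.14, adjusted p = 0.011), a call that was lost after centring (0.79, adjusted p = 0.25) and without WT WENR 1, WT WENR 2 or AHR KO d4 ENR 2.

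Of 11 other stem cell genes, 10 were lower in d4 ENR and none higher, with a median of −0.88, and 5 were lower after centring, where 72.0% and 19.5% of all genes were lower. The largest called differences were −2.39 at *Slc12a2* (SE 0.23), −1.83 at *Olfm4* (SE 0.15) and −1.41 at *Msi1* (SE 0.41), which had no peak in WT d4 ENR 1 and 2. The *Slc12a2* difference was 0.27 in lists of equal length (adjusted p = 0.38). *Olfm4*, which encodes a secreted stem cell marker, had 431 to 635 bp under peaks in WENR and no peak in any d4 ENR library, so its value, like that of *Msi1*, depends on the added 200 bp and is no bound. In d4 ENR 3 of the 11 were higher in AHR KO, near the 23.7% of all genes, and none after centring by limma (3 at an unadjusted p under 0.05, against 3714 of all 18180 genes). The 3 were called with 1.13 at *Lrig1*, 1.02 at *Rgmb* and 0.46 at *Mex3a*.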

How the data were processed

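Omni-ATAC-seq libraries of colon organoids were grouped by genotype and medium from the sample labels. Organoids were grown from several mice of each genotype, but the sources used here do not say which libraries share a mouse or culture, so p-values measure the spread between these libraries, which may be technical. The authors aligned reads to GRCm38 and ran MACS 2.2.7.1 on every library for broad peaks, with no control, at q values of 0.1 (broad) and 0.05 (narrow) and a background window of 10000 bp. Per the file headers, the deposited values are the pileup (a coverage signal, averaged over the peak), its fold enrichment (ratio to the local background) and its −log10 p and −log10 q. Reads per site were not used here.

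The members and lists were chosen with earlier results of these data known. All 10 members were named, with the 3 largest called differences of the 2 other lists in each contrast. Sites named are the promoters, those closed or kept in AHR KO, and the 5 largest called in signal, and a few further sites named after their values were seen, among them the *Axin2* intron site at 15.9 kb and those the text marks as picked. Peaks sharing 1 bp were merged into sites (GENCODE M21 genes). Covered bases were tested as log2(bp + 200) and sites called in all 10 libraries as log2 fold enrichment centred on the median site, with limma 3.58.1 (trend, 4 groups, all libraries; R 4.3.3) and Benjamini-Hochberg adjustment over all 18180 genes or 28205 sites, at a threshold of 0.05. Pileup was scaled to 10000000 fragments. Exact permutation tests were 2-sided. Tables used Python 3.11.15, numpy 2.4.6 and pandas 2.3.3. Data for 18180 genes were simulated with independent noise, lowered in AHR KO d4 ENR at some genes, and centred on the median gene of each library. There limma recovered 100 of 100 genes lowered by 2 and 93 of 100 lowered by 1 on the log2 scale. It called 8 of 17980 unchanged genes. The main fit of covered bases was not centred, so these counts do not describe its calls. Depth was 30354729 to 49126792 fragments. Alternatives were equal list lengths (33433 peaks), a −log10 q of at least 5, 50% of a site covered, other windows (gene body, 5 kb), pseudocounts (50, 1000 bp), centring, no filter, pileup, a replicate block, and each library left out.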

Additional observations from a re-analysis of the deposited data

Results flagged for a closer look

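With all peaks and no centring, the genotype difference in covered bases at *Ephb3* depended on the medium. It was 1.16 on the log2 scale in d4 ENR and −0.07 in WENR, and the test of the difference itself gave 1.23 (SE 0.14, adjusted p = 0.011 by limma over all genes). Both AHR KO libraries were above all 3 WT libraries in d4 ENR. The difference between the media lost its call after centring on the median gene (0.79, adjusted p = 0.25 by limma). In lists of equal length it was 0.23 (adjusted p = 0.62). The genotype difference in d4 ENR was 0.28 in those lists (adjusted p = 0.36). With all libraries and peaks included, none of the 10 genes described above showed such a difference past the threshold.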

How the results depend on the processing

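Of the 10 genes, the 7 with fewer covered bases in d4 ENR became 4 after centring on the median gene and 4 in lists of equal length, and 5 to 9 with a library left out. Among all 18180 genes, 13089 became 3541 after centring, and in lists of equal length 8277 of 16695 were lower. Centring turned the medium difference to 0.25 at *Ascl2*, 0.092 at *Nkd1*, 0.15 at *Sp5* and 0.25 at *Sox9*. Without peaks under a −log10 q of 5, *Smoc2* was −0.22. In lists of equal length *Sp5* was 0.11 and *Slc12a2* 0.27. The count of 5 genes higher in AHR KO in d4 ENR became 0 after centring, 3 in lists of equal length, 2 over the gene body, 8 with the replicate block, 0 in the exact permutation test, which cannot pass, and 0 to 8 with a library left out. The 3 in lists of equal length were *Rnf43*, *Cd44* and *Smoc2*, and *Smoc2* was not among the 5. Among all 18180 genes, 4314 became 214 after centring and 9088 with the replicate block. In lists of equal length 3474 of 16695 were higher. Centring gave −0.19 at *Lgr5*, −0.40 at *Ascl2* and −0.28 at *Sox9*, lists of equal length −0.70 at *Nkd1* and −0.049 at *Sox9*, and the gene body −0.0026 at *Sox9* and −0.074 at *Mex3a*. The difference of genotype effects between the media, called at 0 genes, was called at 2 with the stricter q and at 0 to 4 with a library left out.

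The 17 sites whose signal differed between the media became 7 without centring, 11 in lists of equal length, 7 with the stricter q, and 11 to 17 with a library left out. Among all 28205 sites, 5199 lower and 8747 higher in d4 ENR became 3233 and 2034 without centring. By pileup, the *Rnf43* sites 19.4, 34.4 and 46.9 kb from the start became −0.14, −0.25 and −0.068, and the *Lgr5* site at 26.2 kb became 0.28. The 1 site that differed by genotype in d4 ENR became 0 without centring, 0 by pileup, 2 in lists of equal length, and 0 to 5 with a library left out. Among all 28205 sites, 1045 lower and 739 higher in AHR KO became 1 and 0 without centring, and 211 and 142 by pileup. The 10 closed sites became 3 in lists of equal length, 5 over the gene body, 6 with flanks of 5 kb, and 10 to 14 with a library left out. In lists of equal length, 26 sites of the 10 genes were called in all 5 WENR libraries. Single d4 ENR libraries called 69.2% to 88.5% of them, against 84.0% to 90.2% of all 28530 such sites. The shares of all sites closed, lost or kept under these alternatives are not given here. The 22 sites lost in WT became 7 in lists of equal length and 22 to 30 with a library left out, and the 16 lost in AHR KO became 3, 8 over the gene body, and 16 to 21. The 3 sites kept in AHR KO, and likewise the 3 called in AHR KO alone, became 1 in lists of equal length, 8 with the stricter q and 5 with at least 50% of a site covered. With a library left out they were 3 to 5 and 3 to 8.

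Deviations of same-numbered libraries had correlations of −0.05 to −0.01 over 4 pairs. With 2 or 3 libraries in a group this cannot show whether replicate numbers pair the libraries. The bases under peaks and the share of coverage in peaks rose with the replicate number in each group. With the replicate block, 8 of the 10 genes were lower in d4 ENR and 1 higher, where 13509 and 234 of all 18180 genes were. At the sites, 17 differed between the media, and 1 differed by genotype in d4 ENR. The cause of these changes was not tested. The low share of coverage in peaks in d4 ENR limits what a missing peak can show.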
